A study of Mus musculus with 367 samples.

Results

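The cell cycle genes described here are 52 genes taken by name, and all 52 were found, with 1 gene identifier each, among the 50600 identifiers of the deposited tables. By role they fall into 27 genes of G2 and mitosis, 17 genes of DNA replication and entry into S phase, 6 cyclins and inhibitors of G1, and the pair Stmn1 and Hmgb2. They were measured in single cells from skin wounds of Sm22-Cre;tdTomato mice of mixed background, for which the labels give an age of 3 to 8 weeks (the general methods of the study give a narrower range within it), and large full-thickness wounds were cut into the back. In these mice the Cre recombinase is driven by the promoter of Tagln (also called Sm22), a gene of smooth muscle cells and contractile wound fibroblasts, and any cell in which Cre was once active stays labelled with tdTomato. Wound tissue of 2 to 3 mice was pooled on post-wounding day (PWD) 12, 15 or 21, viable tdTomato-high cells were sorted, and single cells were caught in a microfluidic chip and read as full-length cDNA. All cells of all 3 days carried the same transgenes and came from wounds, so the series holds no unwounded control.

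There were 3 captures on PWD12, 2 on PWD15 and 2 on PWD21, and 292 cells passed the filters on depth, gene number and mitochondrial RNA while 75 were removed. The GEO description of the cells of capture 3 of PWD12 names the table of capture 2, and the table used for them was matched by the capture number in their titles and has as many columns as there are such cells (40). Each test that this capture enters was also run without it. Counts and shares of cells and mean levels over cells include it, and of these only the mean share over captures on PWD12 is also given without it. Doublets had been removed under the microscope, per the labels, and no 2 cells held the same values. The median depth of kept cells, estimated from the steps in the values since the files hold no counts, ranged from 948038 fragments in capture 2 of PWD15 to 2341073 in capture 2 of PWD21, and the median number of genes above 0 ranged from 4845 to 6233. Levels are given in FPKM, fragments scaled to transcript length and to the depth of the cell, and are therefore comparable between genes. By marker levels 198 kept cells were matrix cells (Col1a1 of at least 1000 FPKM, low Rgs5 and Tyrobp), 57 were mural cells (Rgs5 of at least 500 FPKM), 26 were myeloid cells (Tyrobp of at least 500 FPKM) and 11 met no rule. The kinds also differed in markers that the rule did not use. The median of Dcn was 4611 FPKM in matrix and 86.1 in mural cells, that of Mcam was 77.1 FPKM in mural and 0 in matrix cells, and that of Fcer1g was 4765 FPKM in myeloid and 0 in both other kinds. The separation was not complete. Col1a1, which the mural and myeloid rules did not limit, reached 10 FPKM in 100% of mural and 53.85% of myeloid cells. Dcn reached it in 66.7% of mural and 34.6% of myeloid cells. No cell of a kind reached 10 FPKM of the epidermal genes Krt5, Krt14 and Krt15. Tagln, whose promoter drives the label, reached 10 FPKM in 56.1% of matrix and 82.5% of mural cells, and its median in myeloid cells was 0. The capture was taken as the replicate. It is not stated whether captures of a day came from different mice, so p-values measure the spread between captures, which may be technical.

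A dividing cell passes through G1, S, G2 and mitosis. D-type cyclins, the products of Ccnd1, Ccnd2 and Ccnd3, activate the kinases that release E2F transcription factors in G1, while inhibitors such as p21 (Cdkn1a), p27 (Cdkn1b) and p18 (Cdkn2c) hold these kinases back. Cdc6 and Cdt1 load the MCM helicase onto DNA before S phase, and in S phase the helicase unwinds the DNA, the clamp Pcna holds the polymerase on the DNA, and Rrm1, Rrm2, Tyms and Tk1 supply nucleotides. Cyclins A and B with Cdk1 then drive mitosis, kinesins and Aurora kinases build and use the spindle, and the anaphase-promoting complex with Ube2c and Cdc20 ends it. Fibroblasts and pericytes of a healing wound divide while granulation tissue forms, and many promoters of mitotic genes are known to hold CCAAT boxes and an element with the letters TTTGAA, whereas E2F sites are known from promoters of replication genes.

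The promoters are shown first, since they are a feature that the choice of the genes by name did not use. RefSeq promoters of the GRCm38.p6 build matched 42 of the 52 genes, with 48 promoters. In the 250 bases before the start of transcription, CCAAT on either strand stood in 22 of 25 promoters of mitotic genes (88%), in 9 of 15 promoters of replication genes (60%), in 2 of 7 promoters of G1 genes (28.6%) and in 33.8% of all 32851 promoters. TTTGAA on either strand stood in 10 of 25 promoters of mitotic genes (40%), in 1 of 15 of replication genes (6.67%) and in 16% of all promoters. In each of these 10 mitotic promoters CCAAT was present as well, a combination found in 5.55% of all promoters. The E2F-type letters TTTGGCGC or GGCGGGAA stood in 3 of 15 promoters of replication genes (Mcm5, Mcm6 and Rrm1), in 0 of 25 of mitotic genes and in 2.25% of all promoters. No motif holds the letters of another, and a match is a description of the sequence only. The last 150 bases before the start are printed for 4 mitotic genes that nearly all cells with the most mitotic genes held (Birc5, Ube2c, Top2a and Cdk1), for Tk1 and Rrm2, replication genes that passed a test, and for Mcm5, 1 of the 3 with E2F-type letters. Motif matches on either strand are in capitals (ATTGG and TTCAAA are the reverse complements of CCAAT and TTTGAA).
Birc5 (chr11:117849087-117849236, plus strand): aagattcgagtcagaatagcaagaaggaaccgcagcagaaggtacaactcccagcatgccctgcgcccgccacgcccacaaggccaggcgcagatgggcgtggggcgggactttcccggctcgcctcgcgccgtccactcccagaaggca
Ube2c (chr2:164769779-164769928, plus strand): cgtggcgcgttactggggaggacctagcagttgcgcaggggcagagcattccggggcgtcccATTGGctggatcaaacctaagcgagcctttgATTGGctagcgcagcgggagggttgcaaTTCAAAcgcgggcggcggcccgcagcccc
Top2a (chr11:99024190-99024339, minus strand): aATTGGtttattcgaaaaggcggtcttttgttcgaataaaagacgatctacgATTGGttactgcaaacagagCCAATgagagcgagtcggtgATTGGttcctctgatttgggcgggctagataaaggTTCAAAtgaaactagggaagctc
Cdk1 (chr10:69352913-69353062, minus strand): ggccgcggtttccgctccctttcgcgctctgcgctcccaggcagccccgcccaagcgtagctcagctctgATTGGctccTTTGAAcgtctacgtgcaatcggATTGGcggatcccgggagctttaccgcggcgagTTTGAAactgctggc
Tk1 (chr11:117826015-117826164, minus strand): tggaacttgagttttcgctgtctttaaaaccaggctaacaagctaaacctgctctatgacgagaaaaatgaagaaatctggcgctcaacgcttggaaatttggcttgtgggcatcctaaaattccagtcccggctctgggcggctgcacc
Mcm5 (chr8:75109359-75109508, plus strand): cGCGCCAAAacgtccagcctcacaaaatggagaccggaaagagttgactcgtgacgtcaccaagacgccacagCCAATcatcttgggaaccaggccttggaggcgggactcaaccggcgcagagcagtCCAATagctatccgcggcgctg
Rrm2 (chr12:24708104-24708253, plus strand): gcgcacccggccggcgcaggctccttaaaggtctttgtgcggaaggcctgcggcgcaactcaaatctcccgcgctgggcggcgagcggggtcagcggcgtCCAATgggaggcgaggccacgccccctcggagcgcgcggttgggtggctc
Ube2c, Top2a and Cdk1 show both CCAAT and TTTGAA in this stretch, Rrm2 shows CCAAT, Mcm5 shows CCAAT and the reverse complement of TTTGGCGC, and Birc5 and Tk1 show none of these letters.

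Over the 292 kept cells, the most abundant of the 52 genes were Ccnd2, a D cyclin, at a mean of 136 FPKM, and Stmn1, a regulator of microtubule assembly, at 109 FPKM. Cdkn1a followed at 59.8, Pcna at 55.9, Rrm1 at 48.1 and Cdk1 at 45.2 FPKM. At the low end, Ccne1 and Ccne2, the E cyclins of the step from G1 to S phase, had means of 1.59 and 1.41 FPKM. Among the D cyclins the order was Ccnd2, then Ccnd3 at 31.4 FPKM, then Ccnd1 at 7.10 FPKM. This order held in each of the 7 captures, where Ccnd2 ranged from 76.3 to 229 FPKM, Ccnd3 from 14 to 47.8 FPKM and Ccnd1 from 2.18 to 15.4 FPKM, so the ranges of Ccnd2 and Ccnd3 did not overlap and those of Ccnd3 and Ccnd1 did. The highest and lowest means of the mitotic genes were those of Cdk1 and of Bub1, a spindle checkpoint kinase, at 2.14 FPKM. Among the 6 G1 genes the extremes were Ccnd2 and Ccnd1, and among the replication genes they were Pcna and Ccne2.

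The genes differed in how the signal was spread over cells. Ccnd2 reached 10 FPKM in 187 of 292 cells (64%) and Cdkn1b in 169 (57.9%). Of the replication genes, Pcna reached it in 103 cells (35.3%), Rrm1 in 76 (26%) and Tyms in 64 (21.9%), and the 6 MCM genes in 16 to 41 cells each. The other replication genes ranged down to Ccne1 and Ccne2, with 7 cells each. Of the mitotic genes, Cdk1 reached it in 36 cells (12.3%), Birc5, an inhibitor of apoptosis that also serves at the centromere, in 27, Top2a, which untangles DNA, in 22, Mki67, the usual marker of dividing cells, in 18, and Plk1 and Bub1 in 7 each. A value above 0 was a poor guide for several genes. Racgap1, which acts in cytokinesis, was above 0 in 91.8% of cells, but the median of these values was 1.31 FPKM and only 27 cells reached 10 FPKM. Rrm1 and Tyms were above 0 in 87.7% and 86.3% of cells, with medians of 2.42 and 2.46 FPKM among these. The level of 10 FPKM was therefore used to say that a cell held a gene. In the annotation 23 of the 52 genes overlap another gene, 13 of them a protein-coding gene, and the counting is not stated to use strand, so reads of such neighbours cannot be told apart. Copies named after a member exist for 6 genes (Ccnb1, Ccnb2, Pcna, Tyms, Ccnd3 and Stmn1), and the highest mean level of any of these copies was 0.179 FPKM.

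**Figure D1:**
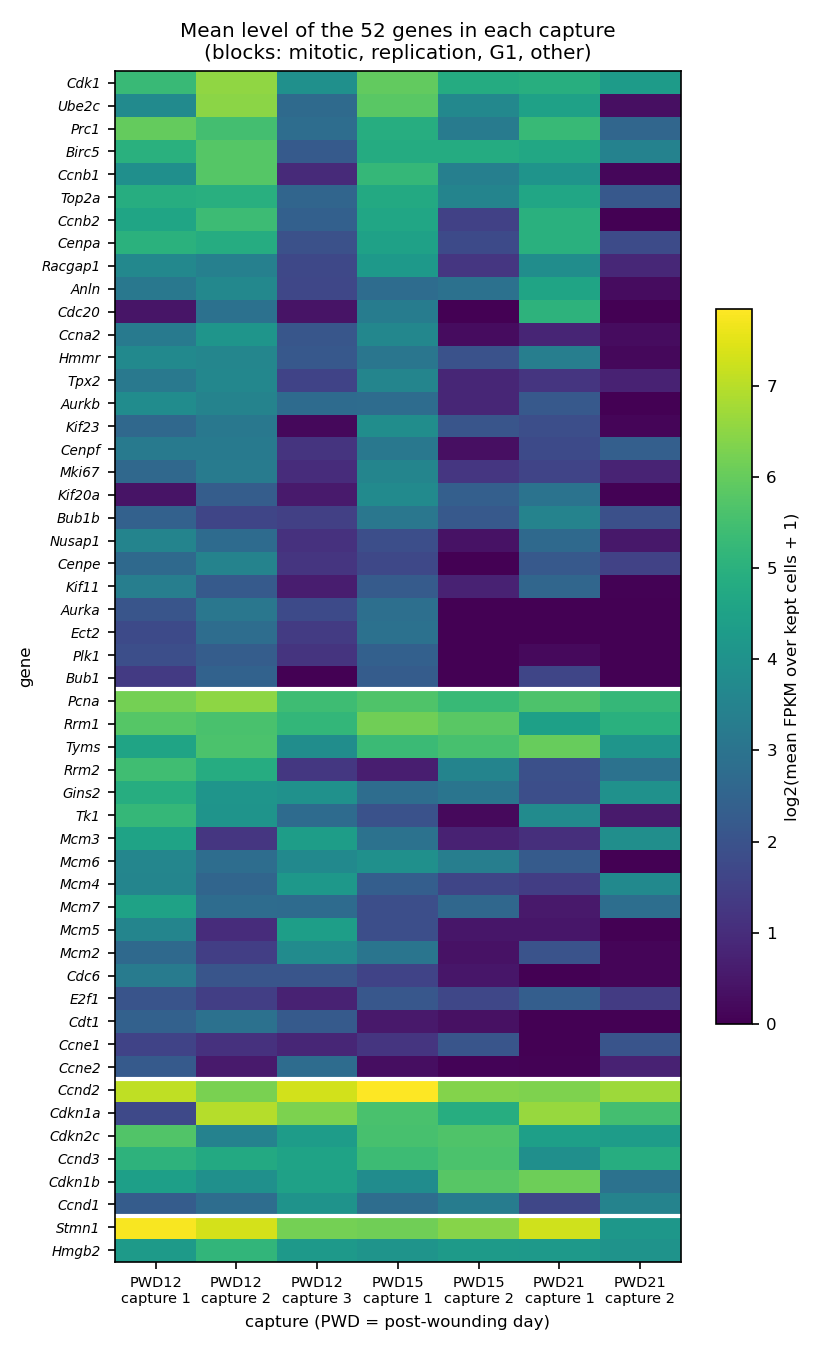
Mean level of each of the 52 genes (rows) in each of the 7 captures (columns), as log2(mean FPKM over kept cells + 1), in blocks of mitotic, replication, G1 and other genes. Ccnd2 and Stmn1 are bright in nearly all captures, while the mitotic block is mostly brighter in captures 1 and 2 of PWD12 and in capture 1 of PWD15 and of PWD21 than in capture 3 of PWD12, capture 2 of PWD15 and capture 2 of PWD21.

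Most cells held none or 1 of the 27 mitotic genes at 10 FPKM. There were 182 cells with 0, 72 with 1, 12 with 2, 2 with 3 and 1 with 4, and 23 cells held at least 5, with numbers up to 27. These 23 cells, 7.88% of the kept cells, are called cells with several mitotic genes. The cell with all 27 was a matrix cell, cell 17 of capture 1 on PWD15, with Cdk1 at 2732 FPKM, Prc1, a bundler of spindle microtubules, at 1513 FPKM, Ccnb1 at 1354 FPKM and Ube2c at 1265 FPKM. The limits of 10 FPKM and of 5 genes cut a continuous scale, and few cells lay next to it, with 1 cell at 4 genes and 1 at 5.

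By day, cells with several mitotic genes were 13 of 119 cells on PWD12, 7 of 100 on PWD15 and 3 of 73 on PWD21. On PWD12 the captures had 7 of 42 cells (16.7%, exact 95% binomial interval 6.97 to 31.4%), 5 of 45 (11.1%, 3.71 to 24.1%) and 1 of 32 (3.12%, 0.0791 to 16.2%). On PWD15 they had 6 of 73 (8.22%, 3.08 to 17.0%) and 1 of 27 (3.70%, 0.0937 to 19%). On PWD21 they had 2 of 34 (5.88%, 0.721 to 19.7%) and 1 of 39 (2.56%, 0.0649 to 13.5%). The mean share over captures was 10.3% ± 6.81 (SD, n = 3) on PWD12, 5.96% ± 3.19 (SD, n = 2) on PWD15 and 4.22% ± 2.35 (SD, n = 2) on PWD21. The captures of the 3 days overlapped in share, and the spread on PWD12 alone was as wide as the gap between the days. The shares were not tested, so no difference between days is read from them. Without capture 3 the mean share on PWD12 was 13.9%. The intervals cover counting error only.

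Cells with several mitotic genes were found in every kind. They were 16 of 198 matrix cells (8.08%, exact 95% interval 4.69 to 12.8%), 4 of 57 mural cells (7.02%, 1.95 to 17.0%), 2 of 26 myeloid cells (7.69%, 0.946 to 25.1%) and 1 of the 11 cells of no kind. The interval of matrix cells lay within that of mural cells, which lay within that of myeloid cells. These intervals pool cells over captures and days and cover counting error only, so they cannot show whether the kinds are alike. All 4 mural and both myeloid cells were from PWD12, where the share was 13.3% of 30 mural cells. On PWD15 it was 0 of 19 mural cells (upper limit 15.8%, from 3 counts of the total, or 17.65% by the exact 95% interval). On PWD21 it was 0 of 8 (upper limit 37.5%, or 36.94% by the exact 95% interval). In matrix cells the shares were 7 of 74 (9.46%) on PWD12, 7 of 72 (9.72%) on PWD15 and 2 of 52 (3.85%) on PWD21. The 2 myeloid cells were the only myeloid cells of capture 1 on PWD12, with Tyrobp at 3113 and 5124 FPKM and Col1a1 at 3.49 and 7.74 FPKM. None of the other 24 myeloid cells had several mitotic genes.

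**Figure D2:**
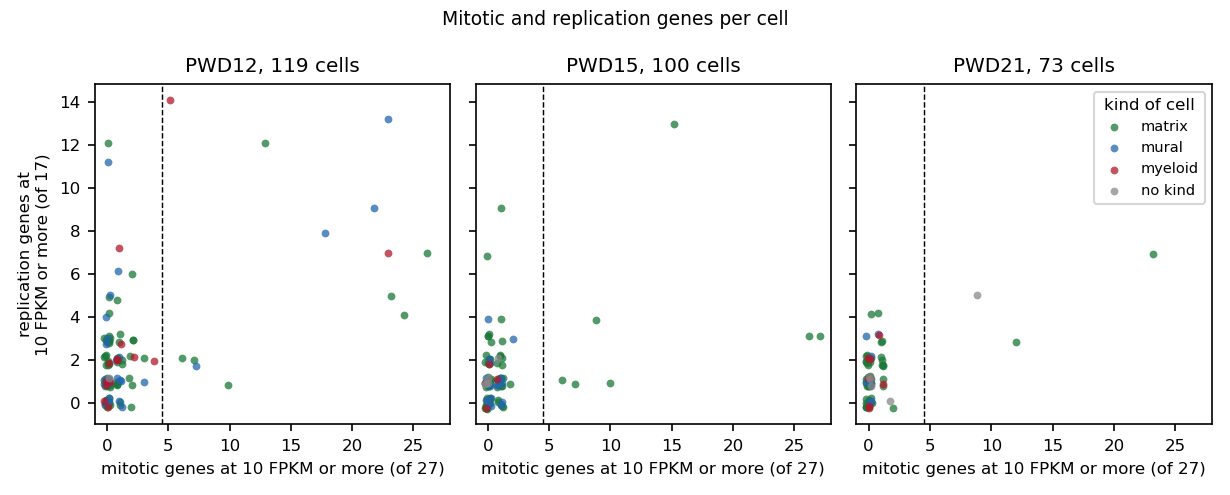
Number of mitotic genes (horizontal axis, of 27) and of replication genes (vertical axis, of 17) at 10 FPKM or more in each kept cell, by day, with points coloured by kind of cell and jittered by less than 0.5 gene. The dashed line separates cells with fewer than 5 mitotic genes from the rest, with 23 cells to its right, and 10 cells to its left hold 5 or more replication genes.

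Of the 23 cells, 13 held 12 to 27 of the mitotic genes and 10 held 5 to 10. This limit was set after the values were seen, and the numbers leave no wide gap there, with 2 cells at 9, 2 at 10, and 1 each at 12, 13 and 15. All 13 cells held Birc5 (110 to 904 FPKM) and Ube2c (48 to 1919 FPKM), and 12 of the 13 held Top2a, Cdk1 and Prc1. Other mitotic genes were present in some of them only, with Plk1 in 6, Aurka in 7 and Cdc20 in 8 of the 13 cells. In cell 17 of capture 1 on PWD15, Aurka was 450 FPKM, Cdc20 was 397 FPKM and Kif23, a kinesin of the midbody, was 791 FPKM, each the highest of the 23 cells. Of the 10 cells with 5 to 10 mitotic genes, 9 held Birc5. Median depth was 1818428 fragments in the 13 cells and 998625 in the 10, and the part of depth was not tested.

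Cells with more mitotic genes held more replication genes at the median. The median number of replication genes at 10 FPKM was 1 in the 269 cells with fewer than 5 mitotic genes, 2 in the 10 cells with 5 to 10 and 7 in the 13 cells with 12 or more. At least 5 replication genes were held by 10 of the 269, 2 of the 10 and 9 of the 13 cells. These are descriptions, and the part of depth was not tested. The numbers ranged widely, from 3 to 13 in the 13 cells and from 1 to 14 in the 10. A mural cell of capture 1 on PWD12 with 23 mitotic genes had 13 replication genes, among them Pcna at 473, Rrm2 at 235 and Mcm6 at 146 FPKM. The matrix cell with all 27 mitotic genes had 3 replication genes, with Rrm1 at 462, Tyms at 233 and Tk1 at 203 FPKM, while Pcna was at 0.64 FPKM and all 6 MCM genes were below 10 FPKM. A myeloid cell of capture 1 on PWD12 had 5 mitotic genes and 14 replication genes, and its Tk1 was 584, Pcna 536, Mcm5 251 and Cdt1 182 FPKM.

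A further 10 cells held at least 5 replication genes and fewer than 5 mitotic genes, a limit set after the values were seen. Of these, 8 were from PWD12, 2 from PWD15 and 0 of 73 from PWD21 (upper limit 4.11%), and they comprised 6 matrix, 3 mural and 1 myeloid cells. The matrix cell 15 of capture 3 on PWD12 held 12 replication genes and no mitotic gene, with Mcm6 at 148, Mcm7 at 126 and Mcm4 at 123 FPKM and with Ccne2 at 64.7 FPKM. The mural cell 37 of the same capture held 11, with Mcm3 at 521, Gins2, a part of the replicative helicase, at 319 and Pcna at 221 FPKM. This capture had 4 of the 10 cells, though 1 of its 32 cells had several mitotic genes.

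**Figure D3:**
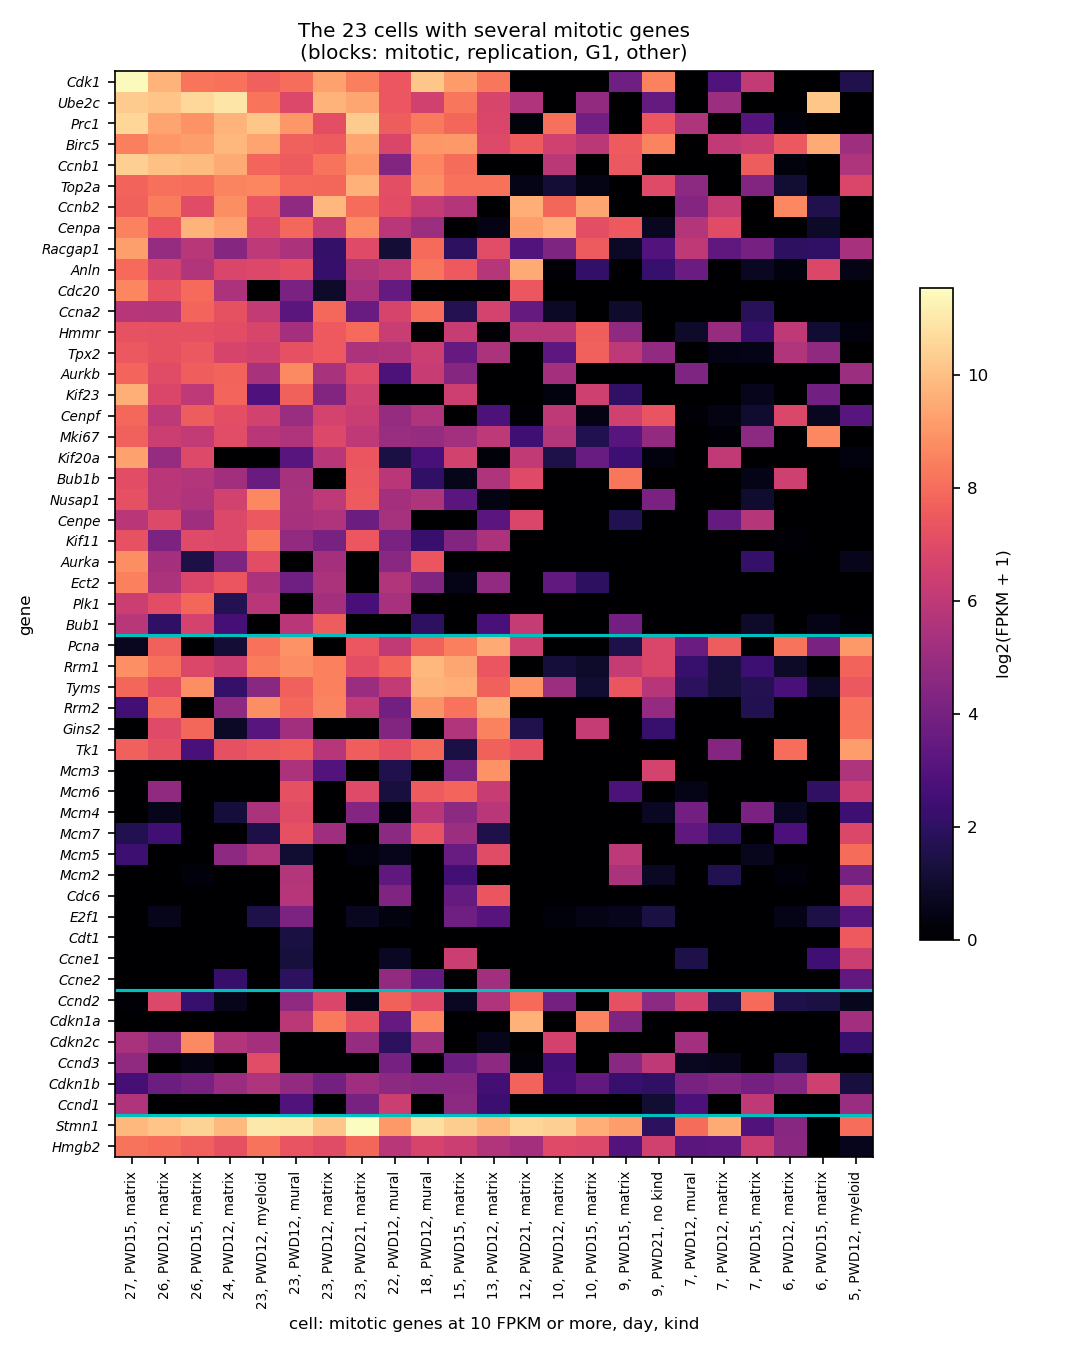
Level of the 52 genes (rows) in the 23 cells with several mitotic genes (columns), as log2(FPKM + 1), with cells ordered by the number of mitotic genes at 10 FPKM or more and labelled with that number, the day and the kind. The mitotic block is filled on the left and patchy on the right, the replication block is patchy throughout, and Stmn1 is bright in most columns.

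To ask which of the 25 members outside the mitotic list differed in these cells, means of cells with several mitotic genes and of the other cells were compared within captures, with limma and the capture as a block, in the 4 captures that had at least 2 such cells (7, 5, 6 and 2 cells). Stmn1 and Tk1 were higher and passed the test, 2 of 25 genes, where 0.303% of all 13883 genes tested were called in either direction. The 27 mitotic genes chose the cells, so their differences are no result. They stayed among all genes tested, and 15 of them were among the 42 called. They therefore enter that share and the adjusted p-values given here. The filter asked for a mean of 1 FPKM over both groups, and 3 of the 25 genes, neither Stmn1 nor Tk1 among them, averaged under 1 FPKM in the other cells. Stmn1 (chr4:134468320-134473843, GRCm38) had means of 972, 1130, 611 and 2249 FPKM in cells with several mitotic genes against 67, 38.6, 21.7 and 21.5 FPKM in the other cells of the same captures. The 2 groups did not overlap. The difference was 5.02 ± 0.51 on the log2(mean FPKM + 1) scale (SE, adjusted p = 0.00698, limma with Benjamini-Hochberg adjustment), higher in 4 of 4 captures. Tk1 (chr11:117815526-117826092), the thymidine kinase of S phase, had means of 204, 119, 34.8 and 173 FPKM against 3.03, 2.66, 0.128 and 2.65 FPKM, again without overlap. Its difference was 5.32 ± 0.78 (SE, adjusted p = 0.0258 by limma). Tk1 overlaps Afmid and Gm20708 on the other strand. The mean of Afmid was 0 FPKM in the cells with several mitotic genes of all 4 captures. In the other cells it was 9.93, 2.92, 0 and 0.0128 FPKM. Reads of these neighbours cannot be told apart, and their part was not tested. Cells with several mitotic genes had a median of 1639749 fragments and 6595 genes above 0, against 1442377 and 5538 in the other cells. The part of depth was not tested. The 2 groups also differed in kind of cell. In capture 1 of PWD12 the 7 cells with several mitotic genes were 3 matrix, 2 mural and 2 myeloid cells. No other cell of that capture was myeloid. Without capture 1 of PWD15 neither gene passed (adjusted p = 0.0685 for Stmn1 and 0.126 for Tk1 by limma), and Tk1 did not pass when any 1 of the 4 captures was left out (adjusted p = 0.0539 to 0.184). Over 14 alternatives, matrix cells only among them, the adjusted p ranged from 0.000702 to 0.412 for Stmn1, which lost its call in 3. For Tk1 it ranged from 0.0108 to 0.369, and Tk1 lost its call in 8.

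Hmgb2, a chromatin protein of dividing cells, was higher in 4 of 4 captures, with means of 93.2, 130, 116 and 136 FPKM against 3.55, 23, 6.5 and 10.7 FPKM, and did not pass (difference 3.59 ± 0.72, SE, adjusted p = 0.0910 by limma). Tyms, the thymidylate synthase, was also higher in all 4, with 93.2, 268, 141 and 251 FPKM against 9.02, 20.8, 30.9 and 52.6 FPKM, and did not pass (2.81 ± 0.62, SE, adjusted p = 0.123 by limma). Rrm2, the regulated subunit of ribonucleotide reductase, had 237, 231, 1.12 and 35.3 FPKM against 3.81, 2.51, 0.537 and 0.765 FPKM. The capture of PWD15 thus stood apart from the other 3, and the difference of 4.13 ± 1.06 (SE) did not pass (adjusted p = 0.193 by limma). Rrm1, the large subunit of the same enzyme, had 164, 320, 108 and 69.8 FPKM against 32.1, 12.8, 66.2 and 18.2 FPKM, higher in 4 of 4 captures, and did not pass (2.36 ± 0.73, SE, adjusted p = 0.266 by limma). Of the 17 replication genes, 14 had a difference above 0 and 3 below, with a median of 0.75 where that of all genes tested was -0.62, but 3 of the 17 passed the filter only through the cells with several mitotic genes, which favours differences above 0. The MCM genes ranged from -0.55 for Mcm2 to 2.54 for Mcm6 on the log2 scale, and none passed. Pcna was 330, 122 and 127 FPKM in 3 captures and 3.15 FPKM in the capture of PWD15, where the other cells had 55.2 FPKM, and its difference was 0.52 ± 1.05 (SE, adjusted p = 0.853 by limma).

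None of the 6 G1 genes passed. Ccnd3 had means of 23.1, 0.0920, 7.86 and 0.0750 FPKM in cells with several mitotic genes against 34.9, 29.6, 43.9 and 14.9 FPKM, lower in 4 of 4 captures, and did not pass (difference -2.90 ± 0.95, SE, adjusted p = 0.291 by limma). Ccnd2 was lower in 3 of 4 captures (-0.97 ± 0.67, SE, adjusted p = 0.546 by limma) and Ccnd1 was lower in 1 of 4 (0.32 ± 1.01, SE, adjusted p = 0.909 by limma). Cdkn1a was higher in 4 of 4, with 13.7, 143, 66.1 and 482 FPKM against 0, 122, 45.9 and 73.5 FPKM, and did not pass (1.83 ± 0.79, SE, adjusted p = 0.389 by limma). Cdkn1b and Cdkn2c differed by 0.50 and 0.07 on the log2 scale, with adjusted p of 0.791 and 0.977 by limma.

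As a description over all 292 cells, the 23 cells with several mitotic genes held 88.0% of the summed FPKM of Tk1, 85.2% of that of Rrm2, 70.5% of that of Stmn1 and 43.5% of that of Hmgb2, but 22.8% of that of Pcna, 9.37% of that of Mcm2, 3.54% of that of Ccnd2 and 3.27% of that of Ccnd3. Stmn1 reached 10 FPKM in 20 of these 23 cells and in 68 of the 269 others, and its maximum among the others was 548 FPKM, against 2967 FPKM in a PWD21 matrix cell with 23 mitotic genes.

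**Figure D4:**
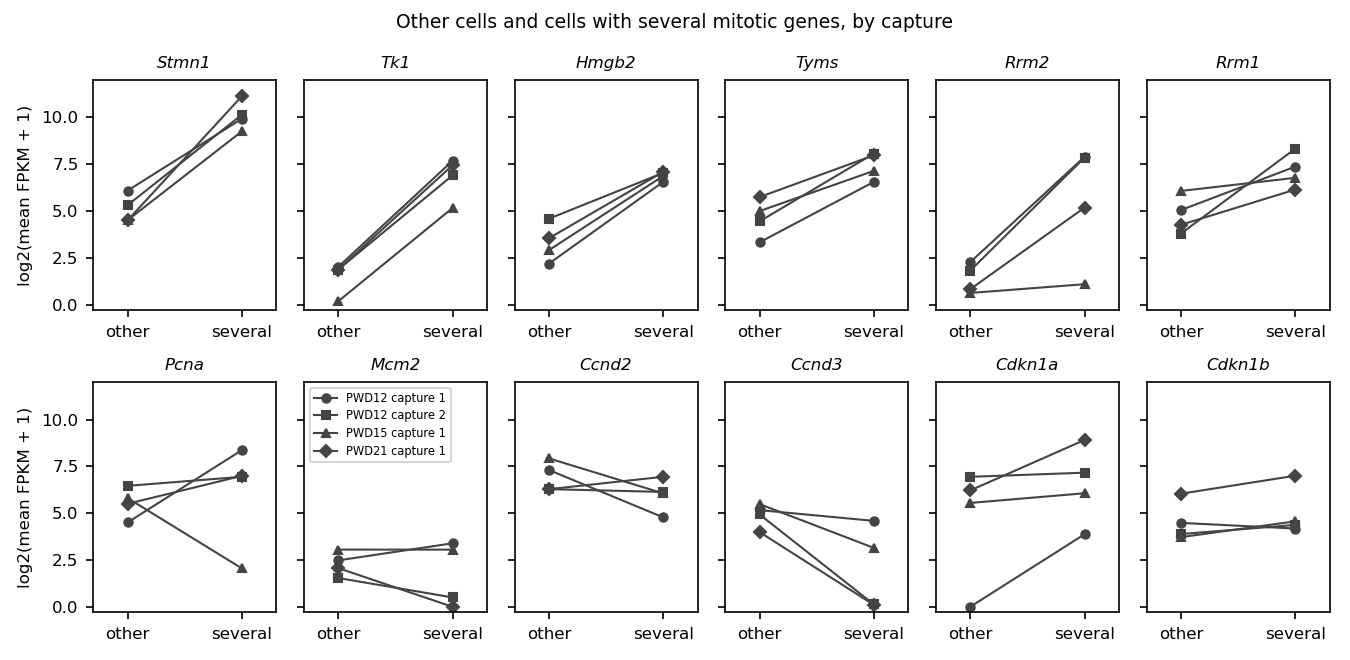
Mean level of 12 genes as log2(mean FPKM + 1) in the other cells and in the cells with several mitotic genes of the same capture, with 1 line and symbol for each of the 4 captures. The lines of Stmn1, Tk1, Hmgb2, Tyms, Rrm2, Rrm1 and Cdkn1a rise in all 4 captures. Those of Ccnd3 fall in all 4, and those of Pcna and Mcm2 cross.

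The fixed lists of other cell cycle genes, which the choice of cells did not use, were read in the same comparison. Of 31 other mitotic genes tested 9 were higher and 0 lower. They were Cks2 and Cks1b, which bind cyclin-dependent kinases, Cdca2, Cdca3, Cdca8, Ckap2l, Nuf2, Pimreg and Tacc3. Of the 31 genes, 11 averaged under 1 FPKM in the other cells and so entered the test only through the group where they were high, among them Cdca2, Ckap2l, Nuf2 and Pimreg, and these counts are therefore no support. Cks2 had means of 220, 747, 229 and 671 FPKM against 9.83, 10.1, 8.82 and 9.11 FPKM (5.26 ± 0.64, SE, adjusted p = 0.0151 by limma). Of 30 other replication genes tested 1 was higher, Rad51ap1, a repair factor, at 63.9, 37.6, 25.0 and 38.1 FPKM against 0.123, 0.00825, 0.138 and 0.294 FPKM (5.14 ± 0.83, SE, adjusted p = 0.0365 by limma). Rad51ap1 and 5 more of the 30 entered the test in the same way. Of 16 other G1 regulators tested, all of which averaged at least 1 FPKM in both groups, none passed, and their median was -0.44.

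Between days, means over the kept cells of each capture were compared. None of the 52 genes passed from PWD12 to PWD15, from PWD12 to PWD21 or from PWD15 to PWD21, where 0% of all 14252 genes were called in each by limma. At an unadjusted p under 0.05 there were 2, 7 and 2 members and 769, 905 and 780 genes in all. From PWD12 to PWD21 the difference was below 0 for 45 of the 52 genes, with a median of -0.85 against -0.15 for all genes tested. From PWD12 to PWD15 it was below 0 for 31, with a median of -0.53 against -0.14, and from PWD15 to PWD21 it was below 0 for 40, with a median of -0.57 against 0 for all genes. The comparisons share captures, and the cells with several mitotic genes that differ in number between captures enter these means.

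The smallest p-values from PWD12 to PWD21 belonged to Cdt1 and Cdc6, the loaders of the MCM helicase. Cdt1 had means of 4.37, 6.57 and 3.70 FPKM in the captures of PWD12, 0.460 and 0.283 FPKM on PWD15, and 0 and 0.0162 FPKM on PWD21. The difference from PWD12 to PWD21 was -2.52 ± 0.77 (SE, adjusted p = 0.732 by limma), and the gene reached 10 FPKM in 8 cells in all. Cdc6 had 8.56, 3.21 and 3.21 FPKM on PWD12, 1.96 and 0.377 FPKM on PWD15, and 0 and 0.0697 FPKM on PWD21 (-2.42 ± 0.84, SE, adjusted p = 0.732 by limma). Mcm5 had 10.8, 0.990 and 20.2 FPKM on PWD12, 2.68 and 0.401 FPKM on PWD15, and 0.383 and 0 FPKM on PWD21 (-2.75 ± 1.09, SE, adjusted p = 0.738 by limma). Over the 52 genes, the captures of PWD12 and PWD21 did not overlap in 12, Cdt1, Cdc6 and Mcm5 among them, where 22% of all 14252 genes did not overlap. The usual markers of division overlapped between the days. Mki67 was 5.23, 8.61 and 0.979 FPKM on PWD12, 10.8 and 1.37 FPKM on PWD15 and 2.02 and 0.705 FPKM on PWD21. Top2a was 28.6, 29.9 and 4.92 FPKM on PWD12, 25.9 and 10.6 FPKM on PWD15 and 23.9 and 3.43 FPKM on PWD21. In both, the lowest capture of PWD12 was below the highest capture of PWD21. Of 18 genes fixed for naming, such as Mki67, Pcna, the D cyclins and Stmn1, the difference from PWD12 to PWD21 ranged from -2.75 for Mcm5 to 1.06 for Cdkn1a. Stmn1 differed by -1.40 ± 0.82 (SE, adjusted p = 0.817 by limma), Ube2c by -1.91 ± 1.37 (SE, adjusted p = 0.851 by limma) and Pcna by -0.62 ± 0.50 (SE, adjusted p = 0.863 by limma), and the 3 D cyclins by -0.46 to -0.37.

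Within matrix cells alone none of the 51 members tested passed between any 2 days, where 0%, 0.00738% and 0% of all 13552 genes were called by limma from PWD12 to PWD15, from PWD12 to PWD21 and from PWD15 to PWD21. At an unadjusted p under 0.05 there were 1, 1 and 2 members. The median difference of the members was 0.25, -0.34 and -0.68, against -0.10, -0.19 and -0.05 for all genes. Cdk1 had 14.3, 75.4 and 16.2 FPKM in matrix cells on PWD12, 73 and 33.7 FPKM on PWD15 and 19.6 and 0.245 FPKM on PWD21, and its difference from PWD15 to PWD21 was -3.32 ± 1.24 (SE, adjusted p = 0.824 by limma). Cdkn1a had 0, 27.5 and 16.2 FPKM on PWD12, 39.9 and 0 FPKM on PWD15 and 74.2 and 48.7 FPKM on PWD21, so the captures of PWD21 were above all others, with a difference from PWD12 of 2.96 ± 1.62 (SE, adjusted p = 0.743 by limma). Rrm1 had 15.8, 46 and 38.4 FPKM on PWD12, 98.0 and 69.3 FPKM on PWD15 and 31.2 and 25.0 FPKM on PWD21, with PWD15 above both other days, and did not pass either (adjusted p = 0.818 against PWD12 and 0.866 against PWD21 by limma). Captures of 2 days did not overlap in some members. The share of all genes without overlap is not given for matrix cells, so nothing is read from this. The order of days in Cdkn1a and Rrm1 is thus a description only.

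Mural and matrix cells were compared within the 5 captures that had at least 3 cells of each. None of the 50 members tested passed, where 1.71% of all 13823 genes were called by limma, and 1 member, Hmmr, had an unadjusted p under 0.05. Ccnd1 was higher in mural cells in 5 of 5 captures, with 6.15, 12.3, 32.6, 7.24 and 3.10 FPKM against 2.48, 6.25, 1.88, 5.21 and 2.29 FPKM in matrix cells, and did not pass (difference 1.24 ± 0.69, SE, adjusted p = 0.457 by limma). Ccnd2 was higher in 3 of 5, with means over cells of 221 FPKM in mural and 135 FPKM in matrix cells (0.42 ± 0.43, SE, adjusted p = 0.693 by limma). Cdkn1a was higher in 4 of 5 (1.34 ± 0.68, SE, adjusted p = 0.409 by limma). The other genes fixed for naming lay between -1.47 for Ube2c and 0.62 for Cdkn1b. Of the mitotic genes 24 of 27 had a difference below 0, with a median of -0.97 against -0.22 for all genes, and 2 of the 27 passed the filter only through matrix cells. The direction turned between captures, and not in the same captures for each gene. Ube2c was 12.8, 13.2 and 12.6 FPKM in mural cells of PWD12 against 3.64, 149.6 and 0.123 FPKM in matrix cells. On PWD15 Ccnb2 was 40.15 FPKM in mural against 20.55 FPKM in matrix cells. Birc5 was 22.7, 75.8 and 7.90 FPKM in mural cells of PWD12 against 12.6, 64.5 and 0.392 FPKM in matrix cells, but 0.0550 against 39.7 FPKM on PWD15 and 0.0375 against 46.8 FPKM on PWD21, where no mural cell had several mitotic genes. Among 17 other G1 regulators tested, Cdkn1c, which encodes the inhibitor p57, was lower in mural cells, with 27.4, 7.54, 18.4, 10.3 and 15.6 FPKM against 150, 126, 320, 45.5 and 75.5 FPKM (-2.92 ± 0.51, SE, adjusted p = 0.0203 by limma), and no other passed.

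Myeloid and matrix cells were compared within the 4 captures with at least 3 cells of each, where the myeloid means rest on 11, 4, 5 and 3 cells. Rrm2 and Prc1 were lower in myeloid cells and passed, 2 of 48 members tested (4.17%), where 6.59% of all 13059 genes were called by limma. The share of the members was thus below that of all genes, whose median difference was -0.9985. At an unadjusted p under 0.05 there were 21 members and 3589 genes in all. Of the 25 mitotic genes tested, 20 averaged under 1 FPKM in myeloid cells, Prc1 among them, as did 4 of 15 replication genes, Rrm2 among them. These genes passed the filter only through the matrix cells, so the count of differences below 0 is no support. Among the differences below 0 that did not pass were those of Ube2c (-3.74 ± 1.08, SE, adjusted p = 0.0590 by limma), Top2a (-3.18 ± 1.05, SE, adjusted p = 0.0834 by limma) and Birc5 (-2.91 ± 1.07, SE, adjusted p = 0.112 by limma). Over the 48 members the differences ranged from -3.96 to 3.11, and 8 were above 0, none of which passed. Pcna was 242.6, 61.7, 0.868 and 278.3 FPKM in myeloid against 40.8, 35.3, 53.65 and 9.23 FPKM in matrix cells. Hmgb2 was 64.8, 67.1, 15.55 and 59 FPKM against 27.5, 9.76, 22.7 and 9.56 FPKM. Cdk1 was 17.5, 0, 121.5 and 114.7 FPKM against 75.35, 33.7, 19.55 and 0.245 FPKM. Rrm2 was listed at 0 in all myeloid cells of the 4 captures, against 29.2, 13, 4.85 and 6.87 FPKM in matrix cells (adjusted p = 0.0349 by limma). Prc1 was 0.145, 0, 0.438 and 0 FPKM against 63.7, 10.6, 70.8 and 0.788 FPKM (-3.96 ± 1.02, SE, adjusted p = 0.0447 by limma). Capture 1 of PWD12 did not enter this comparison because it had only 2 myeloid cells, both with several mitotic genes, and in these Prc1 was 1136 and 0 FPKM and Rrm2 was 441 and 275 FPKM. Both calls were lost when the cells with several mitotic genes were left out, since Prc1 then fell below the filter on low values and Rrm2 had an adjusted p of 0.250 by limma, and without capture 2 of PWD12, capture 2 of PWD15 or capture 1 of PWD21 no member passed. Without capture 2 of PWD21 Rrm2 did not pass either (adjusted p = 0.0892 by limma), while Prc1 and Ccnb1 did. Rrm2 lost its call in 8 of 13 alternatives (adjusted p from 0.0147 to 0.250) and Prc1 in 8 of 12 (0.0284 to 0.262).

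None of the 6 G1 genes passed in myeloid cells. Ccnd2 was 0.452, 46.3, 16.8 and 0.343 FPKM in myeloid against 115, 81.8, 71.1 and 118 FPKM in matrix cells, without overlap and lower in 4 of 4 captures (-3.90 ± 1.24, SE, adjusted p = 0.0756 by limma). Ccnd3 was lower in 4 of 4 as well (-2.87 ± 1.06, SE, adjusted p = 0.111 by limma). Cdkn1a was 409, 192, 335 and 21.4 FPKM against 27.5, 0, 74.2 and 48.7 FPKM, higher in 3 of 4 captures (3.11 ± 1.3, SE, adjusted p = 0.149 by limma). With means of log2 values per cell in place of log2 means, Ccnd2 (-3.23, adjusted p = 0.0367 by limma) and Cdkn1a (2.65, adjusted p = 0.0441) passed, and over 13 alternatives the adjusted p ranged from 0.0367 to 0.298 and from 0.0441 to 0.425. E2f1, a transcription factor of S phase entry, was higher in 4 of 4, with 6.68, 7.83, 8.49 and 2.50 FPKM against 0.125, 1.26, 5.05 and 1.52 FPKM (1.47 ± 0.87, SE, adjusted p = 0.296 by limma). Over single cells, Cdkn1a reached 10 FPKM in 13 of 26 myeloid and 29 of 198 matrix cells, Pcna in 14 of 26 and 64 of 198, and Ccnd2 in 3 of 26 and 131 of 198. The levels of Ccnd2 in mural and matrix cells overlapped between captures and both stood above those of myeloid cells. Of 17 other G1 regulators tested 2 were lower in myeloid cells, Cdkn1c at 1.82, 0, 0 and 0.0867 FPKM against 126, 79.3, 75.5 and 79 FPKM (-6.07 ± 0.97, SE, adjusted p = 0.00835 by limma) and Cdkn2b, which encodes p15 (-3.04 ± 0.79, SE, adjusted p = 0.0461 by limma). Of 27 other mitotic genes tested 2 were lower, Ctcf and Ckap5, of which Ctcf is better known as an insulator protein, and of 23 other replication genes tested none passed. Cdkn1c, Cdkn2b, Ctcf and Ckap5 each averaged under 1 FPKM in myeloid cells and entered the test only through matrix cells. The mural and the myeloid comparison share the matrix cells of 2 captures.

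**Figure D5:**
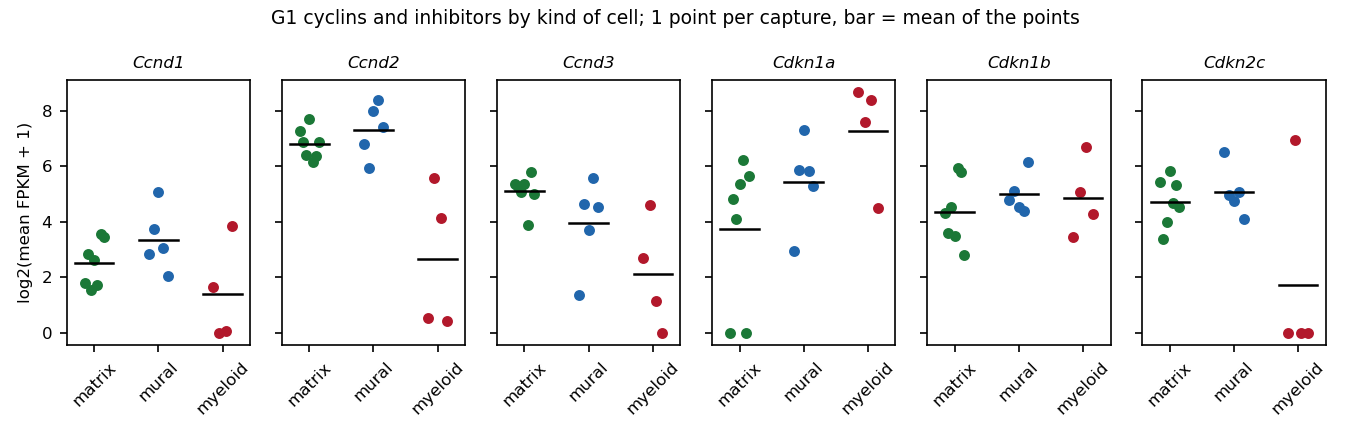
Mean level of the 3 D cyclins and 3 inhibitors as log2(mean FPKM + 1) in matrix cells of 7 captures, mural cells of 5 and myeloid cells of 4, with 1 point per capture and a bar at the mean of the points. Ccnd2 in myeloid cells lies between 0.343 and 46.3 FPKM and below the matrix cells of the same capture in all 4 captures, while Cdkn1a is widely spread in matrix cells, with 2 captures at 0.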

How the data were processed

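Sequencing reads of single tdTomato-high cells were aligned by the authors with Bowtie 1.0.0 to mm10 with GENCODE mouse annotation and quantified with RSEM, and the deposited values are FPKM per gene and cell. No counts or totals are among the files used here, so count tests and the normalization of the study were not run. Identifiers were matched to GENCODE M21 (GRCm38), which holds 50376 of 50600. Fragments per cell were estimated from the steps between FPKM values of single-transcript genes, with an assumed fragment of 300 bases. Cells with at least 159000 fragments, at most 11000 genes and at most 15% mitochondrial FPKM were kept. Mean FPKM per capture and class was taken as log2(mean + 1), genes averaging under 1 FPKM were dropped, and the rest was compared two-sided with limma 3.58.1 (variance trend, Benjamini-Hochberg threshold 0.05) in R 4.3.3. Capture was a block between kinds of cells and not between days. Classes needed at least 3 cells, or 2 for cells with several mitotic genes. Scripts were tested on simulated data. Tables were made in Python 3.11.15. Shares have exact Clopper-Pearson intervals, and a count of 0 of N cells allows 3 divided by N. Named genes are members that passed a test, 18 members fixed for naming (by value or by range) and the highest and lowest of each role, and other genes were named after their values were seen. Members and lists were chosen with earlier results of these data known. Alternatives were pseudocounts of 0.1 and 10, no filter, means of log2 values per cell, TPM and all cells without filters. Further ones were other limits for mitotic genes, the block and each capture left out. For cells with several mitotic genes, matrix cells only were a further alternative. Fits without variance trend and without cells with several mitotic genes were added after seeing the data.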

Additional observations from a re-analysis of the deposited data

Results flagged for a closer look

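Of 49 groups of differences between kinds of cells within captures, 1 had a value far from the others, and chance gives about 1 in 20. In mural minus matrix cells, the difference of Ccnd1 was 3.55 on the log2 scale in capture 3 of PWD12, and 1.04, 0.88, 0.41 and 0.32 in the other 4 captures. The mean of Ccnd1 in that capture was 32.6 FPKM over 14 mural cells and 1.88 FPKM over 17 matrix cells.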

How the results depend on the processing

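Between days, 0 members passed by limma in each of the 6 comparisons under all 16 alternatives, except that with means of log2 values per cell 1 member, Stmn1, was lower on PWD21 than on PWD12 in all kept cells (-2.47, adjusted p = 0.0241) and in matrix cells (-2.59, adjusted p = 0.0216). The labels do not say what a capture number shares across days. The correlation of deviations of captures with the same number was between -0.00626 and 0.0892 over the pairs of days. With 2 captures on a day their deviations mirror each other, so both values for PWD15 and PWD21 are 0.0106. These correlations cannot decide whether the numbers pair the captures. With a replicate block on the number, 0 members passed between days. Mural minus matrix cells gave 0 members under all 14 alternatives. Myeloid minus matrix cells gave 2 members, 4 with a pseudocount of 0.1, 0 with 10, 0 without the filter, 5 with TPM, 1 with all cells, 3 without the block (Bub1b, Prc1 and Rrm2), 1 without the variance trend, 0 without cells with several mitotic genes and 0 to 2 without 1 capture. With means of log2 values per cell it gave 3 others, Ccnd2 lower and Cdkn1a and E2f1 higher, while Rrm2 (-0.67, adjusted p = 0.1) and Prc1 (-0.50, adjusted p = 0.23) did not pass. Cells with several mitotic genes gave 2 members outside the mitotic list, 1 with a pseudocount of 0.1, 1 with 10, 0 without the filter, 4 with means of log2 values per cell (Hmgb2, Stmn1, Tk1 and Tyms), 1 with all cells, 1 without the variance trend (Tk1) and 0 to 1 without 1 capture. The filter changes how many genes are tested, and the other causes were not tested. Calls over all genes ranged from 31 to 1365 in myeloid cells (861 as reported), from 19 to 657 in mural cells (236) and from 0 to 94 in cells with several mitotic genes (42). Between days they ranged from 0 to 5, 28 and 1 in all kept cells (0 each, PWD12 to PWD15, PWD12 to PWD21 and PWD15 to PWD21) and from 0 to 28, 70 and 1 in matrix cells (0, 1 and 0). The mean share on PWD21 was 7.16% at 1 FPKM instead of 4.22%, and other limits moved the shares by less than 1 SD. Without 1 capture the shares were 7.12 to 13.9% on PWD12, 3.70 to 8.22% on PWD15 and 2.56 to 5.88% on PWD21. No called value changed sign. A mean over 2 to 11 cells is set by few cells, and the part of depth was not tested.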

Other observations

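Among the 75 cells that the filters removed, 3 held at least 5 mitotic genes (4%). Of the 23 kept cells with several mitotic genes, 12 reached 10 FPKM of Acta2, the actin of contractile fibroblasts and smooth muscle, 11 reached it for Tagln, and 13 reached it for Pdgfra, a receptor of fibroblasts. Their median of Tagln was 8.50 FPKM, against 48.8 FPKM in the other kept cells. The medians of Acta2 were 30.8 and 0 FPKM, and those of Pdgfra 18 and 4.17 FPKM, higher in the cells with several mitotic genes. Other matrix markers did not follow Pdgfra. Those of Col1a1 were 4177 and 5510 FPKM, of Col1a2 3536 and 5624 FPKM and of Col3a1 4905 and 7460 FPKM, lower in these cells. Those of Dcn were 3222 and 3229 FPKM, and those of Lum 1957 and 1808 FPKM. All these medians pool cells over captures and kinds, and no difference was tested.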
